A study of Rattus norvegicus with 28 samples.

Results

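The genes described here are those whose estimated transcript length separated 2 inbred rat strains in the brain. RSEM, a program that assigns RNA-seq reads to annotated transcripts, writes a length for each gene in each library: the mean length of the gene's transcripts, weighted by how abundant each was estimated to be. The value therefore moves when the balance between a gene's longer and shorter transcripts moves. Genes were taken if they had at least 2 annotated transcripts and an expected count of at least 100 in each of 28 libraries. They were then selected on the lengths themselves. All 14 lengths of one strain had to lie above all 14 of the other, and the strain means had to differ by at least 10% of the smaller. Genes with mean CPM (expected counts scaled to the same total of gene counts in every library) 8-fold or more apart between strains were to be left out, and 0 were. Of 32623 gene rows, 5378 had 2 or more transcripts, 3628 of these met the count minimum, and 7 met the whole rule.

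Most mammalian genes make more than 1 transcript, through alternative start sites, alternative splicing of exons and introns, and the choice between polyadenylation sites at the 3′ end. These choices can change the encoded protein, or only the untranslated parts that bear on stability, location and translation of the RNA. The brain is known for its extensive use of alternative splicing and of long 3′ ends.

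Whole brains of BN-Lx/Cub, a congenic strain on a Brown Norway background, and of SHR/OlaIpcv, a spontaneously hypertensive strain, were compared. Each strain gave 14 libraries: 12 from females, with 4 at pre-estrus, 4 at estrus and 4 at post-estrus, and 2 from males. The protocol calls the animals alcohol-naïve; for age and any other treatment, nothing was used here. That protocol speaks of male rats, whereas the sample labels name females and males, and the sample labels were used. The titles number the libraries of a group as biological replicates. In BN-Lx at pre-estrus, replicates 7a and 7b share a number. Whether they came from the same animal was not established, and they were counted as separate libraries throughout. The study asked how sex and cycle stage act on brain RNA in the different genotypes. Sample descriptions end in b35 or b37, whose meaning is not stated. SHR had 8 libraries with b35 and 6 with b37, and BN-Lx had 7 of each. The descriptions also carry a number, and no number was found in both strains. A strain difference therefore cannot be told apart from a difference between these numbers.

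The libraries held between 43410563 and 90667238 expected counts. The most abundant gene took 23.7% ± 4.38 (SD, n = 14) of gene counts in SHR and 28.1% ± 5.44 (SD, n = 14) in BN-Lx, with a permutation p of 0.026 that rose to 0.0886 after adjustment over the 4 library measures compared (2-sided, Benjamini-Hochberg). The estimated mean fragment length was 157 ± 11.5 bases in SHR and 151 ± 8.06 bases in BN-Lx (SD, n = 14 each; permutation p = 0.147, adjusted 0.196). Gene identifiers could be matched to 0 symbols, so the functions of the 7 genes, their positions and the brain marker genes were not analysed here. Of the 7, those longer in BN-Lx are called B1 to B5 and those longer in SHR S1 and S2, each series ordered by the size of the length difference.

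Among the 3628 rows that could have passed, 23 (0.634%) had strain lengths that did not overlap. Of these, 16 were longer in BN-Lx (0.441%) and 7 were longer in SHR (0.193%). The mean difference reached 10% in 35 rows (0.965%), of which 28 had overlapping strains, with differences of up to 35.7%. The 7 genes are the rows that met both conditions, 5 of them longer in BN-Lx and 2 in SHR. Just inside the 10% threshold lay B5 at 10.1% and S2 at 11.8%, and the nearest separated rows outside it differed by 8.10% and 7.18%. The median difference over all 3628 rows was 0.349%. Because strain lengths chose these genes, the strain differences below are given as a description. For the main fits, counts of genes called between strains are printed beside the share of all rows called. For alternatives they are totals. Nothing is read from either.

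**Figure D1:**
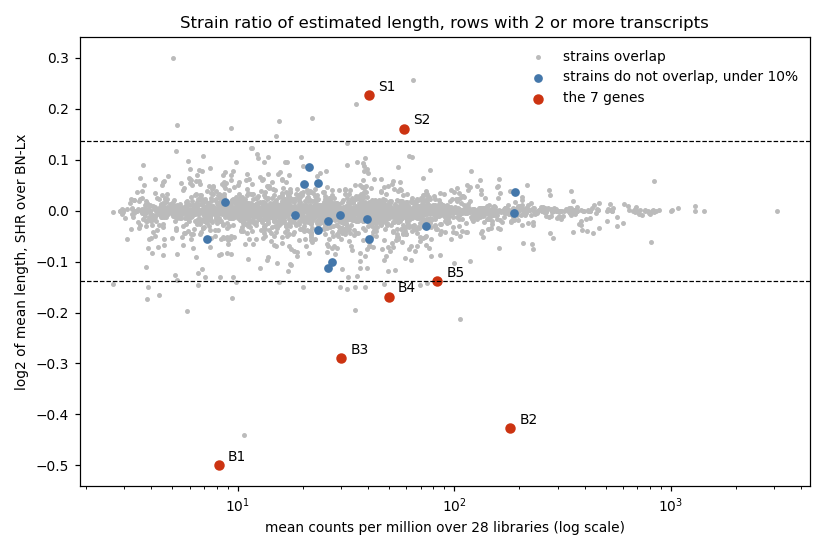
Log2 ratio of strain mean lengths (SHR over BN-Lx) against mean CPM over 28 libraries (log scale) for the 3628 rows with 2 or more transcripts and at least 100 expected counts in every library. Dashed lines mark a 10% difference, gray points are rows with overlapping strains, blue points the 16 separated rows under 10%, and red points the 7 genes, of which B1 lies lowest at -0.50 and S1 highest at 0.23.

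B1 (ENSRNOG00000030712) had the largest difference. Its length in SHR ran from 926 through a median of 1075 to 1441 bases, and in BN-Lx from 1503 through 1580 to 1589 bases. The means were 1107 ± 158 and 1566 ± 31.0 bases (SD, n = 14 each), a log2 ratio of -0.50, or 41.4% of the smaller mean. The BN-Lx libraries were packed against a ceiling: 7 of the 14 stood at exactly 1589 bases, which is therefore the length of a single transcript that took all of the gene's estimated abundance there. Since the row lists 2 transcripts and the shorter can be no longer than the lowest length seen, the longer transcript made up at least 87.1% of the abundance in the lowest BN-Lx library and at least 96.5% on average. SHR libraries were spread widely below that ceiling. The SHR library nearest to BN-Lx was a male at 1441 bases, while the other SHR male stood at 971 bases. B1 also had the lowest counts of the 7, from 130 to 290 expected counts in SHR libraries, so its length there rests on few fragments.

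B2 (ENSRNOG00000018700) was the most abundant of the 7 genes, with 5750 to 19021 expected counts per library. Its length ran from 1348 through 1598 to 1740 bases in SHR and from 1884 through 2118 to 2402 bases in BN-Lx. The means were 1588 ± 135 and 2136 ± 175 bases (SD, n = 14 each), a log2 ratio of -0.43. A gap of 144 bases separated the strains, but the range within either strain was wider than that gap. No library of either strain reached a repeated highest value, so neither transcript length of B2 could be read from the data.

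S1 (ENSRNOG00000007407) was the reverse of B1, with SHR at the ceiling. Its length ran from 645.91 through 646.76 to 647.00 bases in SHR and from 549.49 through 552.07 to 557.96 bases in BN-Lx. The means were 647 ± 0.360 and 553 ± 2.84 bases (SD, n = 14 each), a log2 ratio of 0.23. Within-strain variation was smaller than in any other of the 7 genes, with a coefficient of variation of 0.0557% in SHR and 0.513% in BN-Lx. Exactly 647 bases were reached in 3 SHR libraries. On the same reasoning as for B1, the longer transcript held at least 98.9% of the abundance in the lowest SHR library and at least 99.6% on average. The shift in the longer transcript's share between strain means could be at most 96.2 percentage points for S1 and 69.1 for B1. The other 5 genes allowed at most 42.3 to 60.7 points, and each of these limits uses the whole range seen over 28 libraries.

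S2 (ENSRNOG00000000996), also longer in SHR, ran from 778 through 832 to 856 bases in SHR and from 712 through 736 to 773 bases in BN-Lx. The means were 827 ± 19.4 and 739.9 ± 19.99 bases (SD, n = 14 each), a log2 ratio of 0.16. The strains lay 4.89 bases apart at their nearest, between an SHR and a BN-Lx female, so S2 was separated by much less than its within-strain SD.

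B3, B4 and B5 were longer in BN-Lx by smaller amounts. B3 ran from 3120 through 3236 to 3422 bases in SHR and from 3698 through 4017 to 4333 bases in BN-Lx, with means of 3260 ± 87.1 and 3985 ± 216 bases (SD, n = 14 each; log2 ratio -0.29). Its gap of 275 bases was the widest of the 7 in bases, and BN-Lx varied more than SHR. B4 ran from 1876 through 2052 to 2147 bases in SHR and from 2150 through 2273 to 2474 bases in BN-Lx, with means of 2036 ± 69.0 and 2289 ± 92.9 bases (SD, n = 14 each; log2 ratio -0.17). For B4 only 3.40 bases parted the highest SHR from the lowest BN-Lx library. B5 ran from 3252 through 3330 to 3461 bases in SHR and from 3536 through 3647 to 3823 bases in BN-Lx, with means of 3333 ± 61.5 and 3668 ± 102 bases (SD, n = 14 each; log2 ratio -0.14).

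**Figure D2:**
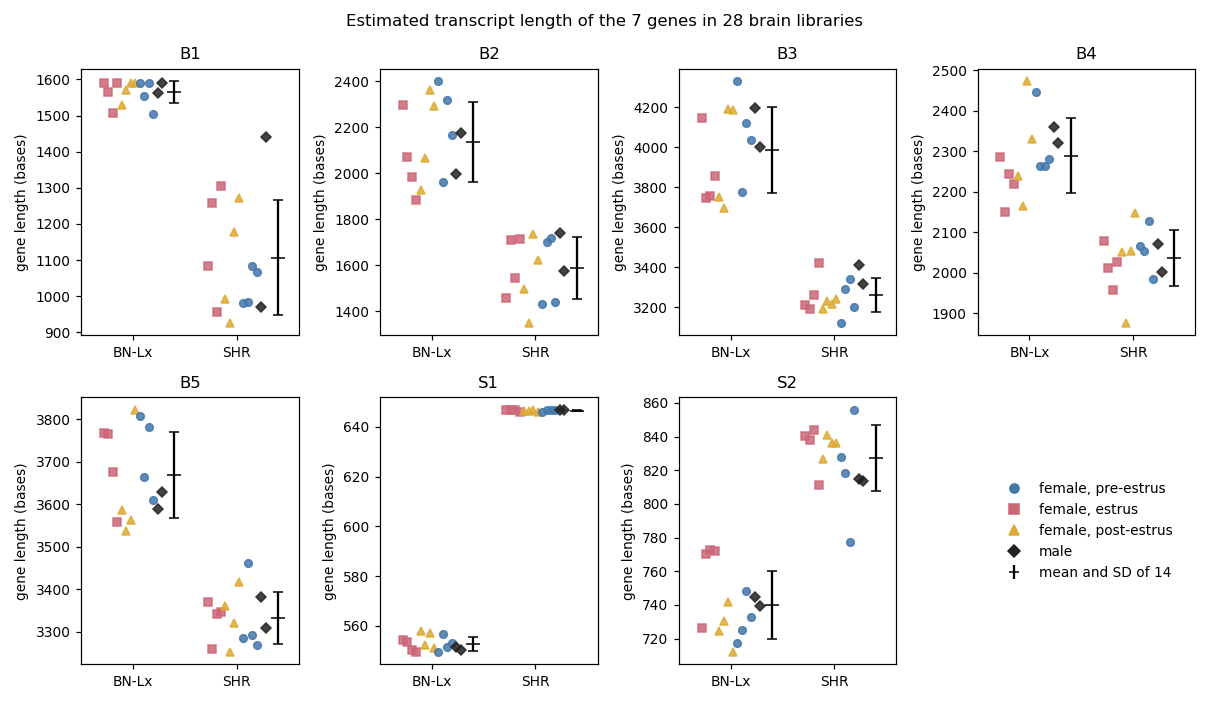
Gene length in bases for each of the 28 libraries, in a panel per gene with its own axis, which does not start at 0; symbols give sex and cycle stage, and bars give the mean and SD of the 14 libraries of a strain. In every panel the strains are apart, B1 and S1 each have one strain held at a ceiling (1589 and 647 bases), and the B4 and S2 strains come within 3.40 and 4.89 bases of each other.

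The direction of every difference was the same in each sex and stage group and within each description suffix. For B1 the log2 ratio ranged from -0.39 in males (2 against 2) to -0.60 at pre-estrus (4 against 4). It ranged from -0.33 in males to -0.49 at pre-estrus for B2, and from -0.25 at estrus to -0.33 at pre-estrus for B3. For B4 it ran from -0.14 at estrus to -0.20 in males, and for B5 from -0.11 in males to -0.16 at pre-estrus. S1 stayed between 0.22 and 0.23, while S2 lay between 0.13 in estrus females and in males and 0.20 at post-estrus. Between the suffixes the sizes differed most for B1 (-0.42 in b35 and -0.62 in b37 libraries) and B4 (-0.21 and -0.13). Groups that do not overlap fix these directions, so they show size only.

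Exactly 2 transcripts were listed for each of the 7 genes and for 2595 of the 3628 rows (71.5%), so nothing is read from that count. The median CPM of the 7 genes was 49.98 against 27.2 over all eligible rows. They ranged from 8.18 CPM (B1) to 181 CPM (B2), at the 13.6th to 94.3rd percentile of the eligible rows. None shared its counts with another row. Expected counts were whole numbers in all 28 libraries for S2 and in 14 for B5, so that no S2 fragment was divided with another gene. They were whole in 1 library each for B2 and S1 and in 0 for B1, B3 and B4, so some fragments of these genes were divided with other genes and their levels and lengths are less certain.

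The strains' CPM ranges did not overlap for 2 of the 7 genes, B1 and B2. The same held for 1.02% of the 3628 eligible rows. Strain lengths and the fold limit chose the genes, so nothing is read from that count. B1 had 3.65 ± 0.699 CPM in SHR (2.35 to 4.62, median 3.75) and 12.7 ± 3.39 CPM in BN-Lx (5.72 to 18.7, median 12.6; SD, n = 14 each), which is 3.48-fold higher in BN-Lx. B2 had 136 ± 11.7 CPM in SHR (108 to 157, median 134) and 227 ± 30.5 CPM in BN-Lx (176 to 282, median 229; SD, n = 14 each), 1.67-fold higher in BN-Lx. For both genes the strain with the longer estimate also had the higher CPM, a unit that is not scaled by length. The other 5 overlapped between strains. B5 averaged 91.6 ± 9.48 CPM in SHR and 75.1 ± 8.42 in BN-Lx, S1 44.2 ± 4.55 and 36.9 ± 4.18, B4 51.6 ± 3.50 and 48.4 ± 6.79, B3 28.4 ± 6.98 and 32.0 ± 5.19, and S2 58.3 ± 8.52 and 58.6 ± 10.2 (SD, n = 14 each). Over all 3628 rows the median log2 ratio of CPM (SHR over BN-Lx) was itself 0.13. B5 (0.29) and S1 (0.26) lay above that median, and B4 (0.09), S2 (-0.01) and B3 (-0.17) below it.

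**Figure D3:**
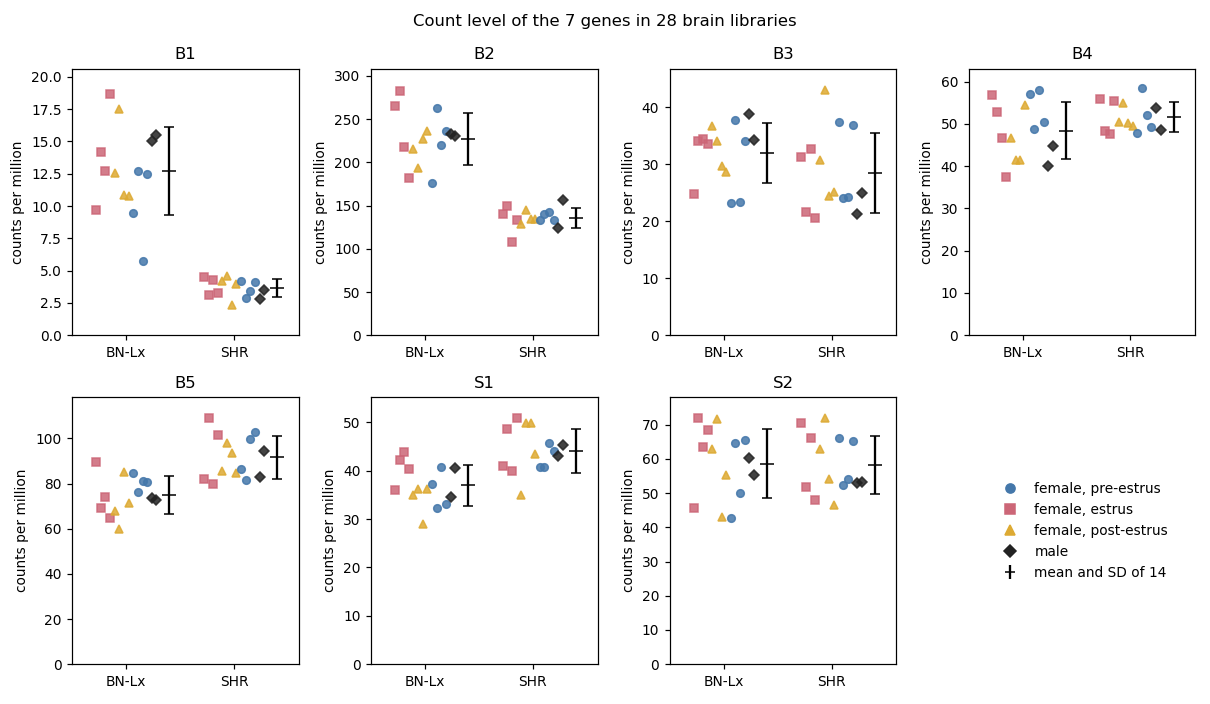
Level in CPM (axis from 0) for each of the 28 libraries, in a panel per gene; symbols give sex and cycle stage, and bars give the mean and SD of the 14 libraries of a strain. SHR lies below BN-Lx without overlap for B1 (2.35 to 4.62 against 5.72 to 18.7 CPM) and B2 (108 to 157 against 176 to 282 CPM), and the strains overlap for the other 5.

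The authors' TPM values divide by length, so a strain difference in length moves TPM and CPM apart. For B1 the log2 strain ratio (SHR over BN-Lx) was -1.80 in CPM and -0.996 in TPM. For B2 it was -0.74 in CPM and -0.16 in TPM. B3 went from -0.17 in CPM to 0.27 in TPM, a change of sign that left it near the TPM median of all rows (0.26). B4 went from 0.09 to 0.37 and B5 from 0.29 to 0.54, while S1 went from 0.26 down to 0.09 and S2 from -0.01 to -0.05. Over all 3628 rows the median ratio was 0.13 in CPM and 0.26 in TPM, a general shift of 0.13 between the scales. The shifts of B1 to B5 were 0.80, 0.58, 0.44, 0.28 and 0.26, above that median, and those of S1 and S2 were -0.17 and -0.04, below it. This follows from how TPM is made and from the choice of the genes. On the TPM scale the strains overlapped for each of the 7, B1 and B2 included. All but 0.276% of the 3628 eligible rows overlapped too, so nothing is read from that count. B1 stood at 2.17 ± 0.673 TPM in SHR and 4.32 ± 0.905 TPM in BN-Lx, and B2 at 52.0 ± 8.89 and 58.0 ± 17.5 TPM (SD, n = 14 each).

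**Figure D4:**
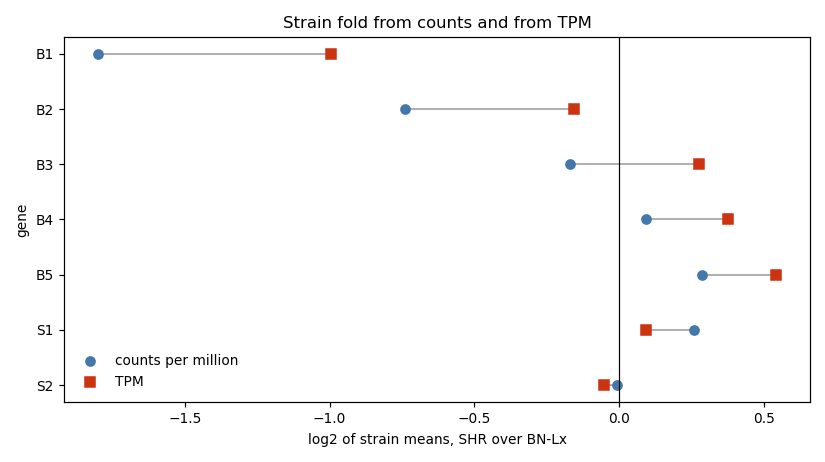
Log2 ratio of strain means (SHR over BN-Lx) for the 7 genes, from CPM (circles) and from the authors' TPM (squares), joined by a line for each gene. B1 to B5 lie further right in TPM than in CPM, by 0.26 to 0.80, B3 passes the zero line, and S1 and S2 lie further left. The zero line is not the median row, which lay at 0.13 in CPM and 0.26 in TPM.

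Sex and cycle stage were not used to choose the genes, although requiring separated strains favours genes with a small spread within a strain. They were tested with limma on log2 length over 3531 rows whose length ranged over at least 1 base, with Benjamini-Hochberg adjustment in each comparison and a threshold of 0.05. No row and none of the 7 genes passed for sex in either strain, for any pair of stages in either strain, or for the strain by sex and strain by stage interactions (0% called in each). At an unadjusted p under 0.05 there were 119 rows for sex in BN-Lx, 108 for sex in SHR, 184 for stage in BN-Lx and 45 for stage in SHR. Of the 7, S2 was the one gene under that level in the stage comparison of BN-Lx. Its estrus lengths were 726, 770.0, 772 and 773 bases, against 717, 725, 733 and 748 bases at pre-estrus and 712, 725, 731 and 742 bases at post-estrus. The 3 higher estrus libraries lay above every other BN-Lx female, and the fourth lay among them. The fitted estrus minus pre-estrus difference was 0.06 on the log2 scale, and the limma p for any stage difference was 0.024, or 0.78 after adjustment. Within b35 libraries alone, 366 of 3498 rows (10.5%) were called for stage in BN-Lx, against 0 in the whole set. S1 was the one of the 7 among them (limma adjusted p = 0.019), in a comparison where post-estrus had a lone library, at 557.30 bases against 549.49 to 551.42 in the other females. Within b37 libraries alone, 0 of the 7 passed for stage.

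Males had 2 libraries a strain, so sex differences were estimated with wide errors. For B1 the log2 length difference of males from females was 0.14 ± 0.10 in SHR and -0.06 ± 0.11 in BN-Lx (SE, n = 2 males and 12 females each), and for B2 it was 0.08 ± 0.10 and -0.04 ± 0.11. For B3 it was 0.05 ± 0.05 and 0.04 ± 0.05. The 4 other genes differed by less than 0.04 in size in both strains. These are smaller than the strain ratios of the same genes, but a test that misses the threshold does not show that the sexes are alike. The suffix term of the same model called 8 rows (0.227%) and none of the 7. B1 was shorter in b37 libraries by a log2 difference of -0.13 ± 0.05 (SE, n = 15 b35 and 13 b37 libraries; limma p = 0.029, adjusted 0.36).

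Levels were tested with edgeR's quasi-likelihood method over 18134 genes. Of these, 6 were called for sex within BN-Lx and 6 within SHR (0.0331% each), and 0 for every pair of stages and both interactions; none of the 7 was among them. At an unadjusted p under 0.05 there were 589 genes for stage in BN-Lx and 116 in SHR, and 0 of the 7. Within b35 libraries alone, with the same lone post-estrus library, 2886 of 18602 genes (15.5%) were called for stage in BN-Lx, B4 and B5 among them (edgeR adjusted p = 0.0321 and 0.0411). Within b37 libraries 0 of the 7 were called for stage. Between strains, 1724 genes (9.51%) were called in females, B1 (-1.81) and B2 (-0.86) among them, and 145 (0.800%) in males, B1 (-2.27) among them. In the length model, all 7 were among 144 rows (4.08%) called between strains in females, and 1 of them, S1, was among 7 rows (0.198%) in males. Nothing is read from these strain calls, since strain chose the genes.

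Lengths were also compared among the libraries of a strain. For each gene and strain, length was set against the gene's own CPM, the share of counts in the most abundant gene, the mean fragment length and the length of the other 6 genes, 84 relations in all with permutation tests. The adjusted threshold was passed by 5 relations with Pearson's coefficient and by 3 with both coefficients. The length of B2 rose with the share of the most abundant gene in BN-Lx (Pearson's r = 0.90, Spearman's rho = 0.84, n = 14; adjusted permutation p = 0.0028 and 0.0092) and in SHR (r = 0.92, rho = 0.93, n = 14; adjusted permutation p = 0.00084 for both). Without the 2 libraries farthest from the median share, r was 0.87 and 0.91. Within suffixes r was 0.98 (b35) and 0.78 (b37) in BN-Lx and 0.94 and 0.95 in SHR. Against the same share, r in BN-Lx and SHR was 0.69 and 0.61 for B3, 0.59 and 0.63 for B4, and 0.59 and 0.49 for B5. It was 0.43 and 0.41 for B1, 0.23 and 0.11 for S1, and -0.54 and -0.52 for S2. None of these passed the adjusted threshold (lowest adjusted permutation p = 0.0943, for B3 in BN-Lx). The lengths of B3 and B4 varied together in BN-Lx (r = 0.83, rho = 0.91, n = 14; adjusted permutation p = 0.0028 and 0.00084; r = 0.75 without the 2 farthest libraries, 0.82 in b35 and 0.83 in b37). In SHR the same pair had r = 0.11 and rho = 0.10 (n = 14; adjusted permutation p = 0.89 and 0.82). The difference between the strains' coefficients was not tested. Whether B3 and B4 still varied together in BN-Lx at equal share of the most abundant gene was not tested either.

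The share of the most abundant gene was lower on average in SHR, and B2 was shorter there. With the share as a covariate, an alternative chosen after seeing the data, the log2 strain difference in length went from -0.43 to -0.33 for B2, which is -421 bases at equal share. It went from -0.51 to -0.47 for B1, from -0.29 to -0.25 for B3, from -0.17 to -0.14 for B4, from -0.14 to -0.12 for B5 and from 0.16 to 0.14 for S2, and stayed at 0.23 for S1. What the share stands for in these libraries was not tested.

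**Figure D5:**
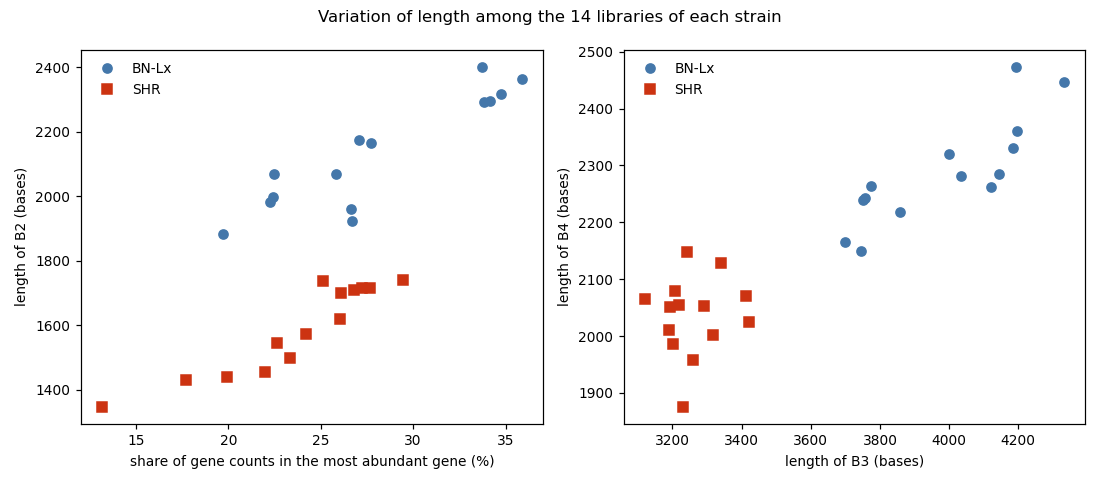
Left, length of B2 (bases) against the percentage of gene counts in the most abundant gene; right, length of B4 against length of B3 (bases); each point is a library, circles BN-Lx and squares SHR, and no axis starts at 0. B2 rises with the share in both strains (r = 0.90 and 0.92) at separate levels, and B3 and B4 rise together in BN-Lx (r = 0.83).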

How the data were processed

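Per the labels' protocols, whole-brain total RNA was depleted of ribosomal RNA, and stranded libraries were sequenced as read pairs. The tools were RSEM and cutadapt, per the submitters' processing notes. Their versions, the build and the gene models were not given in the sources used here. For every gene, the deposited files hold RSEM's expected counts (reads fitting several genes are divided), TPM, FPKM, length and effective length. The deposited FPKM values were not used. The authors' length is in bases and was taken as a signal, as deposited.

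The rule was applied to the deposited lengths and expected counts. CPM is the expected count over the sum of the 32623 gene rows, with the 92 spike-in rows left out. Expected counts were rounded for edgeR 4.0.16 (filterByExpr with a count minimum of 10, TMM, robust). Lengths were fitted with limma 3.58.1 (trend on mean log2 count, robust). Both fits had the 8 groups and the suffix as terms over 28 libraries; R was 4.3.3. Both were also run on simulated data in which each gene varied independently in each library. The simulation did not cover length ceilings or variation shared among genes, and nothing is read from it here. Permutation tests used 100000 resamples (scipy 1.17.1).

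The genes and lists were chosen with earlier results of these data known. The named-gene rule allowed at most 2 identifiers in each direction where no symbol matched. The 12 gene lists (132 entries) matched 0 identifiers and were not tested. P-values measure the spread between these libraries. Alternatives were other count, length and fold limits, effective length, DESeq2 1.42.0, blocks, subsets by suffix and leaving out each library.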

Additional observations from a re-analysis of the deposited data

Results flagged for a closer look

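In 7 of the 84 groups of 4 female libraries examined (7 genes, 6 groups, length and CPM), the highest or lowest library stood apart from the other 3 by more than Dixon's critical value of 0.829 of the group's range. Chance flags about 1 group in 20. Of the 7, 5 were on length and 2 on CPM. For B3, BN-Lx estrus replicate 2 had 24.7 CPM against 33.6 to 34.5 in the others. For S1, BN-Lx post-estrus replicate 5 had 29.0 CPM against 35.03 to 36.3. For B4, BN-Lx pre-estrus replicate 3 had a length of 2447 bases against 2262 to 2282. For B5, BN-Lx post-estrus replicate 6 had 3823 bases against 3536 to 3585, and SHR pre-estrus replicate 11 had 3461 bases against 3267 to 3293. For S2, BN-Lx estrus replicate 2 had 726 bases against 770.0 to 773. For S1, SHR estrus replicate 9 had 645.91 bases against 646.73 to 646.78.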

How the results depend on the processing

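Leaving out each library in turn left 6 to 8 genes under the rule. Of the 7, 6 were kept each time, and B5 fell under 10% without BN-Lx estrus replicate 2 or 4, post-estrus replicate 6, pre-estrus replicate 3 or 7a, SHR estrus replicate 5, post-estrus replicate 13 or pre-estrus replicate 8, 10 or 12 (its log2 ratio stayed between -0.14 and -0.13). A 20% threshold kept 3 genes, B1, B2 and B3. B1 was lost at a count minimum of 200 or 500 and at a 2-fold CPM limit, B4 with effective length, and B4 and B5 in b37 libraries alone. With effective length the log2 length ratio of S1 was 0.29. In the tests of length and level below, the cause of each move was not tested, except that subsets by suffix hold fewer libraries.

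Some subset comparisons rest on an arm of 1 library, assumed to vary like the other groups: BN-Lx post-estrus and SHR males in b35, and SHR post-estrus and SHR males in b37. In b35 libraries alone, length calls were 32 for sex in BN-Lx, 4 for sex in SHR, 18 for sex by strain, 366 for stage in BN-Lx, 1 for stage in SHR and 298 for stage by strain. Of the 7 genes, 1 (S1) was called for length in post-estrus against estrus (12.3% of rows called), in post-estrus against pre-estrus (9.69%) and for stage in BN-Lx (10.5%), and 1 (S1) for stage by strain (8.52%). Level calls there were 55 for strain in males (0 of the 7, with B1 at -2.12), 74 for sex in BN-Lx, 3 for sex by strain, 2886 for stage in BN-Lx and 5585 for stage by strain. Of the 7 genes, 2 were called for level between pre-estrus and estrus BN-Lx females (11.5% of genes called), 1 between estrus and post-estrus ones (12.8%), 2 for stage in BN-Lx (B4, B5; 15.5%) and 3 for stage by strain (B3, B4, B5; 30%). In b37 libraries alone, length calls were 1 for sex in SHR, 3 for stage in SHR and 2 for stage by strain, and level calls were 474 for strain in females, 1 for stage in SHR and 1 for stage by strain; the sex difference in BN-Lx could not be estimated there. With a count minimum of 500, length calls for the suffix were 18. DESeq2 called levels of 316 genes for strain in males, 17 for sex in SHR and 3 for sex by strain. In males 2 of the 7 were called with it, and B2 (-0.70) gained a call. For stage it called 6 in BN-Lx, 5 in SHR and 1 by strain.

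Across groups, no pairing of libraries by replicate number was seen, which does not exclude it. Over 18 pairs with the same number in different groups, the correlation of deviations ran from -0.33 to 0.16 (2 pairs over 0.1). The median was -0.047, against 0.0133 over 322 pairs with different numbers, and the difference was not tested. BN-Lx pre-estrus replicates 7a and 7b, being in the same group, were not compared there. With the replicate block, length calls for sex in BN-Lx were 8. Level calls with it were 150 for strain in females, 51 for strain in males, 0 for sex in BN-Lx and 2 for sex in SHR. In females 1 of the 7 was called with it, and B2 (-0.72) lost its call. With a block for the number that the description carries, length calls for sex in BN-Lx were 1. Level calls with that block were 1 for sex in BN-Lx, 2 for sex in SHR and 1 for sex by strain. Strain could not be estimated with that block, since no number was found in both strains.

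Leaving out each library gave 0 to 3 length calls for sex in BN-Lx, 0 to 7 for sex in SHR, 0 to 5 for sex by strain and 1 to 32 for the suffix. Level calls ran from 61 to 176 for strain in males (61 to 74 without any one male), 5 to 23 for sex in SHR, 0 to 6 for sex by strain, 0 to 1 for stage in SHR and 0 to 1 for stage by strain. Throughout, 0 of the 7 were called for sex, stage or either interaction. The log2 level ratio of females (SHR over BN-Lx) ran from -1.89 to -1.74 for B1 and from -0.91 to -0.82 for B2. The low counts of B1 in SHR (at most 290) and 2 males a strain limit the precision.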
